A study of Mus musculus with 6 samples.

Results

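The neuropeptide precursor genes Penk, Pdyn, Pnoc, Vip, Cck, Npy, Sst, Tac1 and Nmb are described here, 9 of the 18560 genes in the count table. They were chosen by name, all 9 were found in the table, and they were followed over 40 cell clusters and 6 libraries of mouse olfactory bulb profiled by droplet-based single-cell RNA sequencing of transcript 3′ ends. The bulbs came from C57BL/6NJ mice of 14 weeks, dissociated with papain, with some adjoining olfactory epithelium included. There were 3 groups of 2 libraries each. Control mice were labelled as having had no olfactory manipulation, naris-occluded mice had an odour-deprived bulb after 6 weeks of nostril closure, and olfactory-trained mice had 6 weeks of an odour discrimination task. Every library was a pool of 3 mice, and in each group replicate 1 was a male pool and replicate 2 a female pool. The text of the study also names the open side of occluded mice as a control for the occlusion.

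Neuropeptides are cut from larger precursor proteins in the secretory pathway, packed into dense-core vesicles and released beside the classical transmitters. They act at a slower pace than those transmitters, mostly through G protein-coupled receptors. In the olfactory bulb they are known as markers of particular interneurons and of the mitral and tufted projection cells. Npy is also known from olfactory ensheathing cells, the glia that wrap the axons of olfactory sensory neurons.

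The libraries held 6705 to 10570 annotated cells with 11841160 to 17065083 UMIs (unique molecular identifiers, 1 per captured transcript), and a median of 1028 to 1723.5 UMIs per cell. The 40 clusters contained 50671 cells, of which 42.9% were neuronal, 22.8% olfactory ensheathing cells (OEC1 to OEC5) and 34.3% other nonneuronal cells. Of 49931 distinct barcodes, 1461 (2.93%) occurred in more than 1 library. The sex-linked genes matched the pools in all 6 libraries, with 20000 to 27904 Xist UMIs in the female pools and at most 5 in the male pools. Cluster names are those of the deposited annotation, and some differ from the names in the supplement of the study. By its numbers of cells, OEC4 here (3436 cells) is OEC3 there, and OEC3 here (3240 cells) is OEC4 there. The names OEC2 and OEC5, MicroG1 and MicroG2, Astro2 and Astro3, and Mes1 and Mes2 are exchanged in the same way. Marker genes matched most cluster names. The interneuron cluster n18-EPL-IN, named for the external plexiform layer, had only 161 cells, 16 to 36 per library, and mixed markers. Pvalb was highest of any cluster there (64.0 CPM), as was the inhibitory gene Slc32a1, but Crh was second to n17-M/TC-3 (138 against 186 CPM) and the summed EPL interneuron markers ranked 5. Its dopaminergic periglomerular markers ranked 2, with Th second to n05-PGC-2 (243 against 1277 CPM), so the name is used here only as the label of the cluster. Levels are given as CPM, the UMIs of a gene per 1000000 UMIs of all genes, summed over the cells of 1 cluster in 1 library. Where 6 values are given in a row, they stand for control male, control female, occluded male, occluded female, trained male and trained female. A mean ± SD is over these 6 libraries, and intervals on shares of cells are exact 95% binomial intervals that cover counting error only. A UMI is counted once per 3′ end, so a level does not scale with transcript length. Cluster levels are described without a test, since the clusters were made from these same cells.

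For 7 of the 9 genes the RefSeq table of promoters held the 250 bases upstream of a start site (build GRCm38.p6), and these were searched on both strands for the cyclic AMP response element TGACGTCA and for its core TGACG, which is contained in it. This element is a textbook entry point for activity-dependent signalling to peptide genes. The full element was in 1.55% of all 32851 promoters and in 1 of the 7 members, Sst. The core was in 17.8% of all promoters and in 4 of the 7 members. The stretches around these matches are shown because they are the only sequence feature searched for, with the match in capitals and each line read 5′ to 3′ on the gene's strand:
Sst, chr16:23890874-23890903, minus strand: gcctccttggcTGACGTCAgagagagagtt
Vip, chr10:5639127-5639155, plus strand: ggatcactactgTGACGtctttcggggag
Tac1, chr6:7555006-7555034, plus strand: gctctacaggctCGTCAcgcctgagataa
Tac1, chr6:7554852-7554880, plus strand: tccctaaaattgCGTCAtttcgaacacaa
Cck, chr9:121495725-121495753, minus strand: cctgctggactgCGTCAgcactgggtaaa
In the Tac1 and Cck stretches the core lay on the opposite strand and so reads CGTCA. The capitals began 48 bases before the start site in Sst, 79 in Vip, 43 and 197 in Tac1 and 47 in Cck. These distances are to the start sites of the promoter table, which lie inside the gene spans given here for Sst (chr16, 23890844) and Vip (chr10, 5639218). Npy, Nmb and Pdyn had no match in this window.

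**Figure D1:**
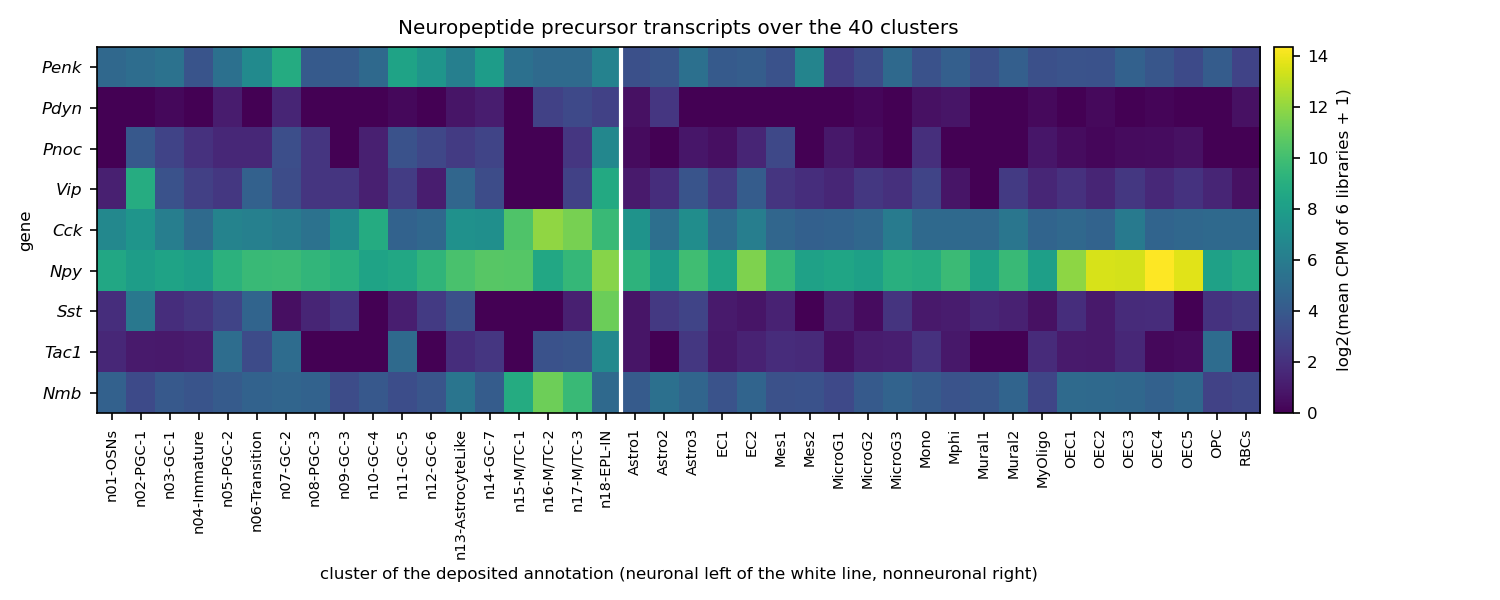
Mean level of each of the 9 genes (vertical axis) in each of the 40 clusters (horizontal axis), as log2 of the mean CPM over 6 libraries plus 1. Npy was brightest in the 5 ensheathing clusters and present throughout, Cck and Nmb were brightest in the mitral and tufted clusters n15 to n17, and Pdyn was near 0 everywhere.

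Npy dominated the transcripts of the list. Its 330966 UMIs were spread over 24179 cells, and 89.4% of them lay in ensheathing cells, 49.7% in OEC4 alone. Npy (chr6:49822710-49829507), the precursor of neuropeptide Y, was at 21129, 20715, 21438, 20506, 19515 and 21133 CPM in OEC4, 20739 ± 685 (SD, n = 6). The 6 libraries lay close together and the 3 groups overlapped. A UMI of Npy was found in 3435 of 3436 OEC4 cells, 99.97% (95% interval 99.8 to 100%). OEC5 followed at 13471 ± 1611 CPM, OEC2 at 11531 ± 784, OEC3 at 11065 ± 930 and OEC1 at 3870 ± 245. OEC4 was above OEC5, and OEC3 above OEC1, in 6 of 6 libraries. OEC2 and OEC3 differed by less than the spread of their difference (467 ± 1148 CPM), and OEC5 exceeded OEC2 in only 4 of 6 libraries.

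Every other cluster also held Npy, from 232 CPM in Astro2 upwards, with a median of 609 CPM over the 40 clusters. In the microglial cluster MicroG2, whose cells are not a known source of neuropeptide Y, 34.9% of cells had a Npy UMI and the level was 284 ± 27.6 CPM. EC1 endothelial cells (31.0%) and Astro2 cells (29.8%) had shares below that. EC1 had a mean of 338 ± 80.0 CPM, and its 23 cells with at least 10 Npy UMIs held 33.3% of its Npy UMIs, against 14.4% in 11 such MicroG2 cells. Frzb, a secreted Wnt antagonist and ensheathing cell marker, had the profile over the 40 clusters most like that of Npy (Pearson r = 0.94 of log2(CPM + 10), a description of clusters from shared libraries), followed by Aqp1 (0.93) and Arhgef16 (0.91). The ratio of Npy to Frzb UMIs was 11.9 in OEC4 and 4.43 in OEC1. In the 34 clusters outside the ensheathing cells and n18-EPL-IN it ran from 5.50 to 14.1. In n18-EPL-IN it was 80.1, from 641 Npy UMIs and 8 Frzb UMIs. The other 39 clusters thus lay between 4.43 and 14.1.

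**Figure D2:**
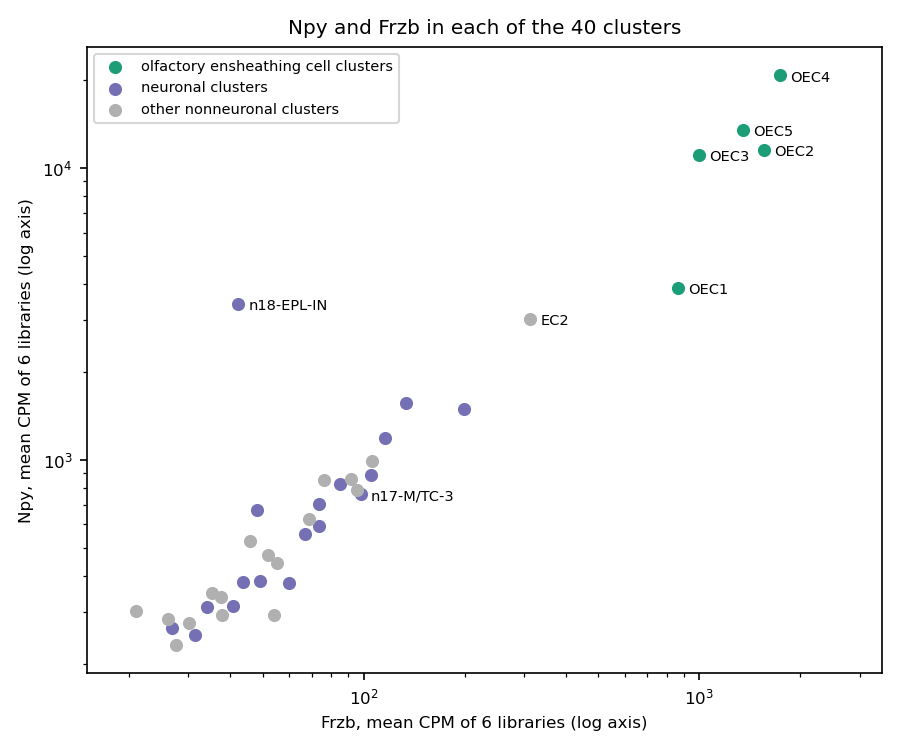
Mean CPM of Npy (vertical, log axis) against mean CPM of the ensheathing cell marker Frzb (horizontal, log axis), 1 point per cluster and colours for ensheathing, neuronal and other nonneuronal clusters. The points rise together to OEC4 at 20739 CPM of Npy, and n18-EPL-IN at 3429 CPM of Npy stands above the rest.

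The endothelial cluster EC2 had the highest Npy of the nonneuronal clusters outside the ensheathing cells, 3048 ± 919 CPM. It split by Frzb. The 138 EC2 cells with a Frzb UMI had 9302 CPM of Npy, against 722 CPM in the 986 cells without one. Cldn5, a tight-junction gene of endothelium, was at 3290 and 3289 CPM in these cells, a level that the ensheathing cluster OEC1 also had (3630 CPM). Median depth was 1660 UMIs in cells with Frzb and 723.5 UMIs in cells without it. In the other endothelial cluster, EC1, Npy was at 338 CPM. Of all EC2 cells 34.6% had a Npy UMI, a share like that of MicroG2 at a lower depth (median 750.5 against 1847 UMIs), and after thinning each cell to 500 UMIs the shares were 26.8 and 12.9%.

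Among neurons Npy was highest in n18-EPL-IN, at 12656, 1142, 5050, 1194, 357 and 175 CPM. The spread was wide and the trained pools were lowest. One cell of the male control pool held 322 of the cluster's 641 UMIs, and 55 of 161 cells (34.2%, interval 26.9 to 42.0%) had any, 23.0% after thinning. A set of 61 cells in the bulb-wide neuronal cluster N2, which the finer neuronal annotation does not include, had 6768 CPM of Npy and a Npy UMI in 96.7% of its cells. Ensheathing and neuronal marker levels are not given for this set, and whether its Npy belonged to neurons was not tested.

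Sst (chr16:23889573-23891342), the precursor of somatostatin, was rarer and more confined. It had 697 UMIs in 150 cells, and 56.0% of them lay in n18-EPL-IN. There its level was 5505, 419, 6524, 0, 0 and 1050 CPM. The occluded female and trained male pools were at 0, and the groups overlapped. Only 9 of 161 cells had a Sst UMI (5.59%, interval 2.59 to 10.3%), against 0.0885% in MicroG2. The 7 cells with at least 10 Sst UMIs held 98.2% of the cluster's Sst UMIs, and the largest count in 1 cell was 155. Of the 9 cells, 8 also had a Npy UMI, against 30.9% of the other n18-EPL-IN cells, at like median depths of 824 and 812 UMIs. Most of these Npy counts were small. The 7 cells with at least 10 Sst UMIs had 68, 18, 3, 2, 2, 1 and 1 Npy UMIs. The ensheathing marker Frzb was also found in 22.2% of the 9 cells, against 2.63% of the others. Whether it bears on the shared Npy was not tested. In the periglomerular cluster n02-PGC-1, Sst was at 2.04, 168, 3.04, 75.3, 0 and 61.1 CPM from 10 cells, 1 of which held 59 of 95 UMIs. The genes with the profile most like that of Sst were Chrna2 (r = 0.90), Gpr101 (0.88) and Syt2 (0.87).

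Vip was concentrated in a small set of cells of a periglomerular cluster. Vip (chr10:5639193-5647617) encodes vasoactive intestinal peptide, and 65.1% of its 1391 UMIs lay in n02-PGC-1, a calretinin-rich cluster of inhibitory neurons of the glomerular layer. The level there was 297, 358, 726, 749, 511 and 187 CPM, 471 ± 231. The occluded pools were highest and did not overlap with either other group. A Vip UMI was found in 150 of 1037 cells (14.5%, interval 12.4 to 16.8%), against 0.752% in MicroG2 at the same depth (median 1846 and 1847 UMIs). The UMIs were concentrated, since 23 cells with at least 10 Vip UMIs held 67.5% of them. Cells with Vip carried Pnoc in 7.33% of cases and Crh, the gene of corticotropin-releasing hormone, in 10.0%, against 0.338% and 0.451% of cells without Vip. The cells with Vip were also deeper, with a median of 2474.5 against 1808 UMIs. Gad1, which makes GABA, was at 623 CPM with Vip and 631 without. Other neuronal genes differed between these cells. Gad2 was higher with Vip, at 281 against 141 CPM. Calb2, the calretinin gene, was lower with Vip, at 4625 against 6824 CPM. A Calb2 UMI was found in 85.3% of cells with Vip and 96.5% of cells without it. In n18-EPL-IN exactly 1 cell per library had a Vip UMI, 6 of 161 in all, and these gave a mean of 420 CPM. Vip in the other 38 clusters was at most 26.1 CPM.

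Pnoc (chr14:65400673-65425564), the precursor of nociceptin, had 226 UMIs in all, 84.1% of them in neurons. Its highest level was in n18-EPL-IN, at 59.8, 266, 111, 0, 153 and 0 CPM from 7 cells. n02-PGC-1 followed at 14.6 ± 10.3 CPM and the granule cell cluster n11-GC-5 at 11.3 ± 4.26 CPM, and these neighbours did not differ beyond the spread of their difference. Sst had the profile most like that of Pnoc (r = 0.84) and of Vip (r = 0.84).

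The enkephalin precursor Penk (chr4:4133536-4138815) was highest in some of the clusters of granule cells, the axonless interneurons of the deep bulb. In n07-GC-2 it was at 441, 461, 501, 311, 435 and 534 CPM, 447 ± 76.7, and all groups overlapped. A Penk UMI was in 31.3% of its 3608 cells (interval 29.8 to 32.8%), and in 1.77% of MicroG2 cells at a greater depth. n11-GC-5 followed at 319 ± 50.4 CPM, lower in 6 of 6 libraries. n14-GC-7 at 242 ± 72.3 and n12-GC-6 at 177 ± 41.0 CPM did not differ from each other beyond their spread (64.9 ± 68.6). The granule cluster n03-GC-1 was at only 40.7 CPM, below n13-AstrocyteLike at 73.0 CPM, and n09-GC-3 and n10-GC-4 were lower still. Unlike Vip and Sst, Penk was thinly spread, and only 3 cells in the whole table had 10 or more UMIs. Outside neurons the mesenchymal cluster Mes2 had most, at 41.2, 155, 78.8, 74.1, 115 and 55.0 CPM from 33 of 230 cells. Cort, the cortistatin gene, had the profile most like that of Penk (r = 0.90), then Icam5 (0.90) and Kcnb2 (0.88).

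The dynorphin precursor Pdyn (chr2:129686549-129699938) was almost absent, with 39 UMIs in 37 of 50671 cells. Its highest mean, in the mitral and tufted cluster n17-M/TC-3, was 7.97 ± 7.99 CPM from 11 UMIs.

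Cck and Nmb were highest in the mitral and tufted clusters, the projection neurons of the bulb. Cck (chr9:121489824-121495694), the cholecystokinin precursor, was at 4947, 4908, 3879, 2871, 3795 and 3137 CPM in n16-M/TC-2 and at 3532, 2101, 3373, 2316, 2726 and 2186 CPM in n17-M/TC-3. In n17-M/TC-3 the 3 male pools were all above the 3 female pools, a difference of -0.57 ± 0.19 on the log2 scale that did not pass (edgeR adjusted p = 0.687), while the 3 groups overlapped. n16-M/TC-2 exceeded n17-M/TC-3, and n17-M/TC-3 exceeded n15-M/TC-1 (1345 ± 988 CPM), in 6 of 6 libraries each. A Cck UMI was in 54.8% of n17-M/TC-3 cells (interval 51.5 to 58.0%) and in 5.04% of MicroG2 cells. n18-EPL-IN at 856 ± 735 CPM and the granule cluster n10-GC-4 at 457 ± 73.5 CPM came next. Nrn1 (r = 0.90) and Kcnip4 (0.87) were among the profiles most like that of Cck.

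Nmb (chr7:80902227-80905062), the neuromedin B precursor, was at 746, 867, 846, 873, 881 and 826 CPM in n17-M/TC-3, 840 ± 50.1, and the groups overlapped. n16-M/TC-2 was higher in 6 of 6 libraries (2321 ± 1384 CPM) and n15-M/TC-1 lower in 5 of 6 (447 ± 323 CPM). All other clusters had at most 47.2 CPM. Eomes, a transcription factor of glutamatergic projection neurons, had the profile most like that of Nmb (r = 0.96), then Tfap2c (0.96) and Cdhr1 (0.93). The pair met in the same cells in n16-M/TC-2, where 63.8% of cells with Cck had Nmb and 27.3% of cells without Cck did, at median depths of 1282 and 841.5 UMIs. In n17-M/TC-3 these shares were 55.5 and 50.4%. n15-M/TC-1 and n16-M/TC-2 had only 90 and 116 cells, with fewer than 10 in at least 1 library, and were not tested between groups.

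**Figure D3:**
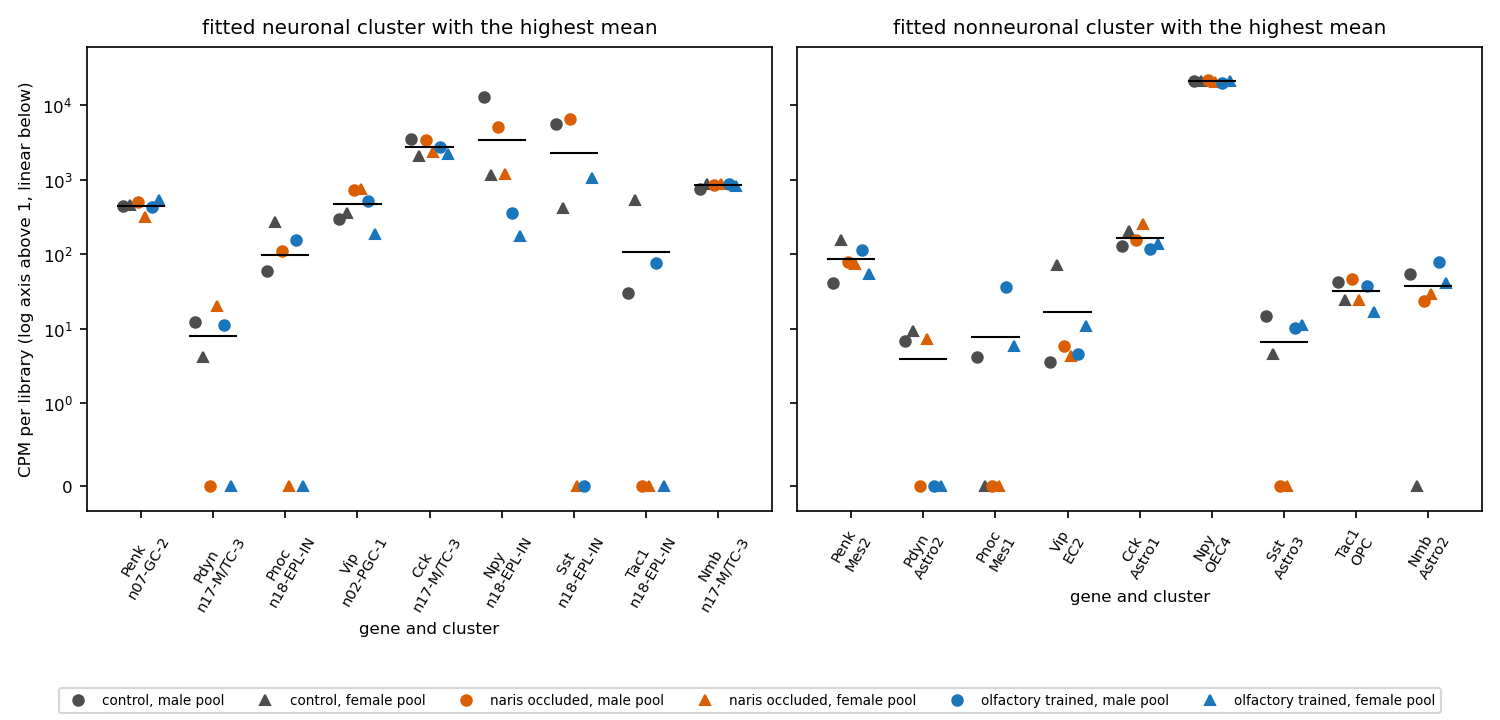
CPM of each gene per library (vertical, log axis above 1) in its highest neuronal (left) and nonneuronal (right) cluster among those with at least 10 cells in every library. Colours mark groups, circles male pools, triangles female pools, and black lines the mean of the 6 libraries. Npy in OEC4, and Nmb and Penk in their neuronal clusters, were tight, while Npy, Sst, Pnoc and Tac1 in n18-EPL-IN ranged down to 175 CPM or to 0.

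Some peptide genes were also found at low levels in glia outside the ensheathing cells. Cck in the astrocyte cluster Astro1 was at 128, 207, 157, 256, 117 and 135 CPM, 167 ± 54.0, and in Astro3 at 129 ± 33.2 CPM, against 26.9 ± 4.95 CPM in MicroG2. In Astro1 395 of 3130 cells (12.6%, interval 11.5 to 13.8%) had a Cck UMI, and 5.88% did after thinning each cell to 500 UMIs. The corresponding MicroG2 shares were 5.04 and 1.28%, at nearly equal median depths of 1851.5 and 1847 UMIs. Astro1 cells with Cck had 1991 CPM of the water channel gene Aqp4 and 529 CPM of the filament gene Gfap, against 813 and 205 CPM in Astro1 cells without it. The astrocyte marker Slc1a2 was not higher with Cck, at 2259 against 2422 CPM. The mitral cell genes Slc17a7 (19.1 against 20.6 CPM) and Reln (23.1 against 14.8 CPM) stayed low in both sets.

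Tac1 (chr6:7555061-7562978), the precursor of substance P and neurokinin A, was scarce at 404 UMIs. Its highest mean, 107 CPM in n18-EPL-IN, came from 6 cells. The periglomerular cluster n05-PGC-2 (33.3 ± 14.9 CPM), n07-GC-2 (32.7 ± 25.9), oligodendrocyte progenitors (OPC) (32 ± 11.8) and n11-GC-5 (30.2 ± 31.1) followed and did not differ beyond their spread. In OPC the 6 values were 42.5, 24.5, 46.3, 24.0, 37.8 and 17 CPM, with every library above 0 and each male pool above each female pool. They came from 10, 5, 8, 5, 8 and 3 UMIs, too few for Tac1 to be tested in OPC. A Tac1 UMI was in 31 of 397 OPC cells (7.81%, interval 5.37 to 10.9%) and in 0.221% of MicroG2 cells, but OPC were deeper (median 2901 UMIs) and the share was 1.01% after thinning. OPC with Tac1 had 1104 CPM of Pdgfra, the progenitor's growth factor receptor, against 734 CPM in OPC without it, and 84.2 against 113 CPM of Gad1. Other neuronal genes went both ways. Gad2 was at 37.4 against 29.9 CPM, Calb2 at 168 against 137, Reln at 18.7 against 8.16 and Slc17a7 at 9.36 against 20.9. Median depths were 3409 and 2815.5 UMIs. The other nonneuronal clusters had at most 4.03 CPM of Tac1. C1ql3 (r = 0.78), the prohormone convertase Pcsk1 (0.74) and Tmem255a (0.73) had the most similar profiles.

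Of 20 listed receptor genes 17 were in the table, and Nmbr, the neuromedin B receptor, had 2 UMIs in all. Vipr2, a receptor of vasoactive intestinal peptide, reached 163 ± 15.8 CPM in n07-GC-2, Npy1r 81.4 ± 13.7 CPM in the mural cluster Mural2, and the kappa opioid receptor Oprk1 71.9 ± 14 CPM in n02-PGC-1. Sstr1, a somatostatin receptor, was highest in OPC at 36.1 ± 10.2 CPM, with at most 3.79 CPM in any other cluster. Of 19 other precursor genes 18 were measured. Trh, the thyrotropin-releasing hormone precursor, reached 3881 ± 413 CPM in the dopaminergic cluster n05-PGC-2, the satiety peptide gene Cartpt 718 ± 301 CPM in n09-GC-3, and galanin, Gal, 422 ± 159 CPM in n05-PGC-2.

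The group comparisons ask whether 6 weeks of deprivation or of training moved these transcripts within a cluster. Of the 9 genes, 7 passed the filter on low counts in at least 1 of the 38 clusters fitted, giving 101 gene-cluster pairs: 38 for Npy, 29 for Cck, 15 for Penk, 12 for Nmb, 3 for Vip and 2 each for Sst and Tac1. Pdyn and Pnoc passed in none. The test was edgeR's quasi-likelihood test on counts summed per library and cluster, with Benjamini-Hochberg adjustment over all genes of the cluster. With 2 libraries a group, an exact permutation test of 2 against 2 cannot go below p = 0.333, so p-values rest on the spread pooled over genes and groups and measure the spread between these pools of mice only. In occluded against control, 3 of the 101 pairs passed 0.05, all upward, where 0.068% of all gene-cluster pairs did. In trained against control 2 pairs passed, both downward, where 0.0932% of all did, and in trained against occluded 2 passed, both downward, where 0.175% did. The median log2 fold changes of the 101 pairs were -0.01, -0.06 and -0.13, and those of all pairs 0.00 in each comparison. With DESeq2 none of the pairs passed in any of the 3 comparisons, where 30, 25 and 53 of all 178070 pairs did. At an unadjusted edgeR p under 0.05 there were 19, 24 and 19 of the 101 pairs (18.8, 23.8 and 18.8%), where 4.78, 5.73 and 7.21% of all pairs were, and 38 of the 101 were Npy. Npy gave 9, 11 and 12 of these and Cck 8, 8 and 2. For Cck in occluded against control they were n02-PGC-1 (-0.78), n03-GC-1 (-0.80), n04-Immature (-0.63), OEC1 (-0.89), OEC4 (-0.89), EC2 (-1.18), MicroG3 (-1.43) and n18-EPL-IN (2.32). Only n18-EPL-IN passed after adjustment, and the cause of the lower values was not tested.

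Vip in n02-PGC-1 rose in the occluded group. The occluded pools (726 and 749 CPM) were above both control pools (297 and 358 CPM), a log2 fold change of 1.16 ± 0.22 (SE), adjusted p = 0.0156 by edgeR's quasi-likelihood test, where 0.0858% of the genes tested in that cluster passed. It remained past 0.05 without any single library, in cells of at least 1000 UMIs, and without the richest cell of each library (log2 fold change 1.36, adjusted p = 0.00542), but not with DESeq2 (1.16, adjusted p = 1.00). Cells with any Vip were 30 of 256, 21 of 181, 30 of 163, 19 of 136, 33 of 175 and 17 of 126 in the 6 libraries. Cells with at least 10 Vip UMIs were 2, 3, 5, 8, 4 and 1, so the occluded pools had the largest counts of rich cells. The summed inhibitory neuron markers were level across the cluster's libraries, at 1732 and 1756 CPM in controls, 1778 and 1679 in occluded and 1831 and 1844 in trained pools. Calb2, the calretinin gene, was at 6506 and 6336 CPM in controls, 7188 and 7071 CPM in occluded and 5290 and 6541 CPM in trained pools. Whether these differences bear on the Vip change was not tested.

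**Figure D4:**
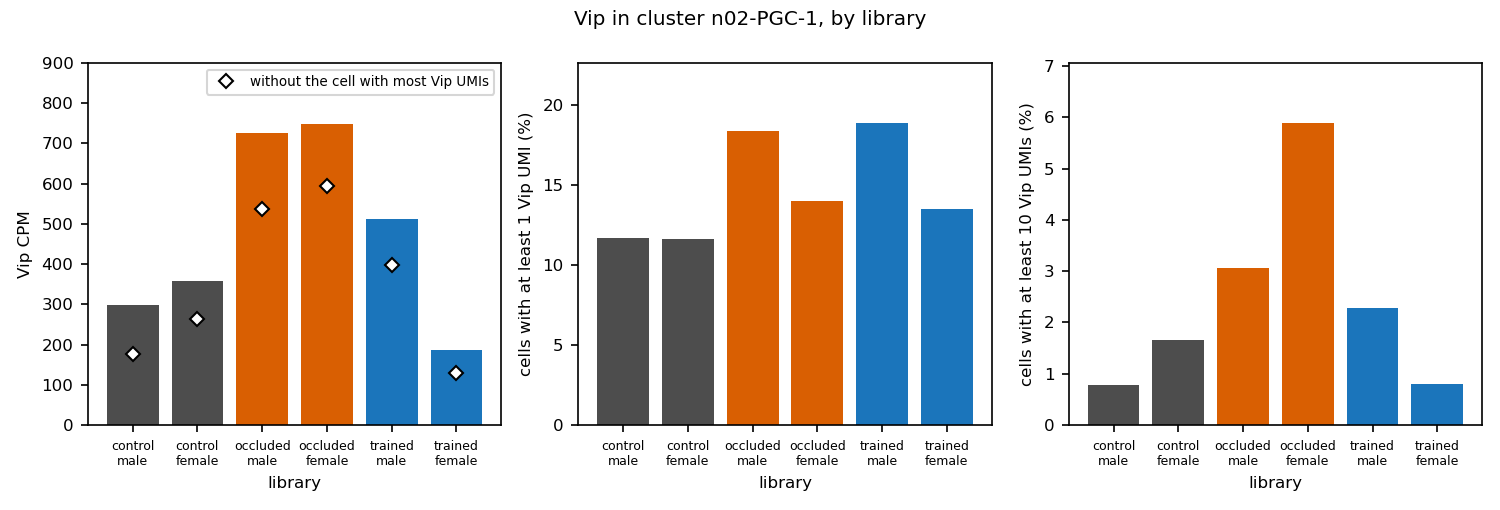
Vip in n02-PGC-1 for each library (horizontal axis), as CPM (left, with diamonds for the value without the richest cell), percent of cells with a Vip UMI (middle) and percent with at least 10 Vip UMIs (right). Bars are single libraries with no error bar, and both occluded pools have the highest CPM, 726 and 749, with and without the richest cell.

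Against occluded pools, the trained pools had less Vip in n02-PGC-1, with a log2 fold change of -1.04 ± 0.23, edgeR adjusted p = 0.0391 (0.223% of genes in the cluster passed). The trained pools differed widely, at 511 CPM in the male and 187 CPM in the female pool. Without the female trained pool the change was -0.53 (adjusted p = 0.333), without the male trained pool -2.01, and without the female occluded pool it was -1.01 (adjusted p = 0.0799). Fitting the 2 groups alone (adjusted p = 0.0633) or leaving out the richest cell of each library (0.0738) also ended the call. Fabp7 was also lower in the trained than the occluded pools there (-0.88 ± 0.19, edgeR adjusted p = 0.0332), and the summed ensheathing markers of the cluster were 846 and 654 CPM in control, 1024 and 922 in occluded and 990 and 706 in trained pools. Their part in the Vip result was not tested. Trained against control gave 0.12 ± 0.24 and did not pass. Tac2, the neurokinin B gene, differed by 0.96 ± 0.26 in occluded against control in this cluster and did not pass (adjusted p = 0.399 by edgeR).

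Npy did not pass in OEC4, where most of it lay, with log2 fold changes of -0.02, -0.06 and -0.05 and an SE of 0.08 each. It passed in no other ensheathing cluster either, the nearest being OEC5 in trained against occluded (-0.37 ± 0.11, edgeR adjusted p = 0.212). Npy rose in EC2 in the occluded group, from 2569 and 2362 CPM in controls to 4755 and 3446 CPM, a log2 fold change of 0.71 ± 0.15 with edgeR adjusted p = 0.0120 (0.245% of genes in the cluster passed), and was lower in trained than occluded pools by -0.63 ± 0.15, adjusted p = 0.0332 (0.685% passed). The ensheathing cell gene Fabp7 moved with it, by 0.76 and -0.80 (both past 0.05). The summed 6 ensheathing markers in EC2 were 6924 and 6279 CPM in controls, 10519 and 9460 in occluded and 5101 and 7290 in trained pools, and none of the 6 was at 0. In EC2 cells without a Frzb UMI, Npy was at 672 and 783 CPM in controls, 530 and 998 in occluded and 504 and 980 in trained pools, so the groups overlapped there. The cells with a Frzb UMI held 2971 of the 3606 Npy UMIs of EC2, so this split left little of the Npy to compare. Whether ensheathing cell transcripts bear on the EC2 changes was not tested. The rise in EC2 was lost without the male control pool (adjusted p = 0.262), the female control pool (0.737) or the male occluded pool (0.551, log2 fold change 0.46), and the fall in trained against occluded was lost without the male occluded pool (-0.39, adjusted p = 0.425), either control pool or the male trained pool. In EC2 cells of at least 1000 UMIs neither passed (0.58, adjusted p = 0.617, and -0.10, adjusted p = 0.94).

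In n17-M/TC-3, Npy was lower in the trained pools, at 521 and 469 CPM, than in the control pools, at 1140 and 989 CPM, with the occluded pools at 569 and 893 CPM between. The trained against control change was -1.11 ± 0.24, edgeR adjusted p = 0.0401 (0.137% of genes in the cluster passed). Fabp7 moved with it (-1.21, past 0.05), and the summed ensheathing markers were 3366 and 2997 CPM in controls and 1928 and 1440 CPM in trained pools. In cells without a Frzb UMI, Npy was at 475 and 444 CPM in controls and 493 and 221 CPM in trained pools, which overlapped. Frzb had the profile most like that of Npy, so this split also took away much of the Npy of the control pools. The part of ensheathing cell transcripts in this change was not tested. The call was lost without the male control pool (adjusted p = 0.23) or the female trained pool (0.262), and with library totals in place of TMM factors (0.0545).

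The 161 cells of n18-EPL-IN gave the remaining calls, where 1.74% of genes passed in occluded against control and 0.772% in trained against control. Npy fell in trained against control by 4.36 ± 0.81 on the log2 scale (edgeR adjusted p = 0.00375). The male control pool carried most of it, and without that library the change was -1.83 (adjusted p = 0.603). The call was also lost without the female trained pool (adjusted p = 0.319) and in cells of at least 1000 UMIs (0.632). Summed ensheathing markers were 1646 and 1903 CPM in control and 1835 and 583 CPM in trained pools, and their part was not tested. Cck rose in occluded against control by 2.32 ± 0.48 (edgeR adjusted p = 0.0109), from 299 and 343 CPM to 2285 and 597 CPM. In the male occluded pool 2 cells had at least 10 Cck UMIs, and without that pool the change was 1.01 (adjusted p = 0.542). The call was also lost without the male control pool (adjusted p = 0.118) or the female trained pool (0.0589), in cells of at least 1000 UMIs (0.738) and with the 2 groups alone (0.0527). The 6 mitral and tufted markers summed to 509 and 723 CPM in control and 995 and 737 CPM in occluded n18-EPL-IN cells, with 1 of the 6, Tbx21, at 0 in all libraries, and the ensheathing markers to 1646 and 1903 against 4755 and 2563 CPM. Their part in the Cck result was not tested.

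**Figure D5:**
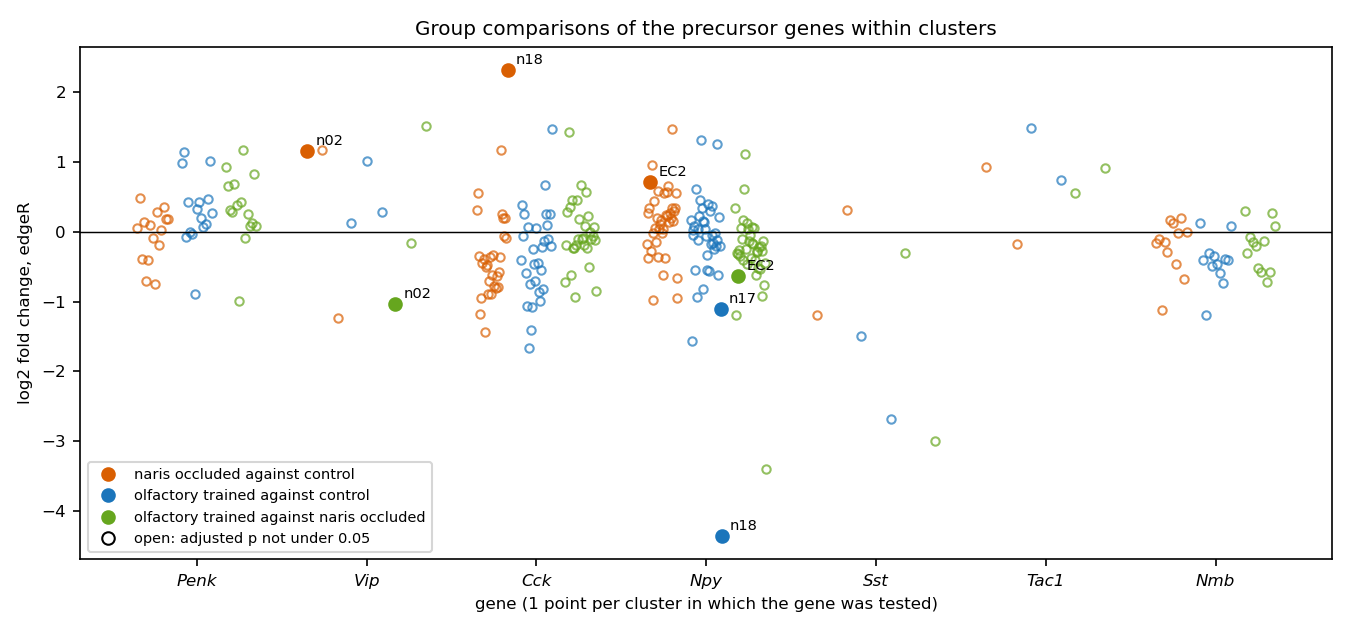
Log2 fold change (vertical axis) of each gene in each cluster where it was tested, for the 3 comparisons in 3 colours. Filled points, named by cluster, are the 7 that passed the adjusted p of 0.05 in edgeR's test, and open points did not pass.

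Penk, Sst, Nmb and Tac1 had no call in any group comparison. Penk in n07-GC-2 differed by -0.19 ± 0.19 in occluded and 0.07 ± 0.19 in trained against control, and Nmb in n17-M/TC-3 by -0.01 ± 0.21 and 0.08 ± 0.22. Cck in n17-M/TC-3 differed by -0.09 ± 0.24 and -0.20 ± 0.24. On simulated counts for occluded against control, a log2 change of 1 was recovered in 31% of changed genes in n17-M/TC-3, 34% in n07-GC-2 and 45% in n02-PGC-1. Changes of that size could thus be missed among the tested genes at large. The changed genes were drawn at random from all tested genes of the cluster, 100 at a log2 size of 1 and 100 at 2. In these simulations 123, 116 and 130 genes passed in n17-M/TC-3, n07-GC-2 and n02-PGC-1. In the data 22, 1 and 5 passed, so the adjustment was stricter there and recovery may be lower. Recovery at the levels of Penk, Nmb and Cck was not simulated. None of 17 receptor pairs passed in any comparison with edgeR (1, 3 and 2 at an unadjusted p under 0.05), nor with DESeq2. Of 36 pairs of other precursors, 2 passed in occluded against control, where 0.068% of all gene-cluster pairs did. These were Adcyap1, the PACAP gene, in n17-M/TC-3 (-1.34) and Trh in n18-EPL-IN (-2.54). Trh in n18-EPL-IN also passed in trained against control (-2.12), where 0.0932% of all pairs did. Trh in n11-GC-5 passed in trained against occluded (-1.26), where 0.175% did.

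With the group kept in the model, 6 of the 101 pairs passed in female against male pools, where 0.277% of all pairs did. DESeq2 called 2, and 153 of all 178070 pairs. This contrast was added after the data were seen. The sex of the pool is also its replicate number, so sex and processing batch, if the replicates were prepared apart, cannot be told apart. Tac1 in n11-GC-5 was at 19.3, 31.9, 3.22, 36.8, 3.09 and 86.7 CPM, higher in the female pool in 3 of 3 groups, with a log2 fold change of 2.52 ± 0.37 and edgeR adjusted p = 1.92e-06, and it passed without any single library but not with DESeq2 (2.93, adjusted p = 1.00). Cells with a Tac1 UMI there were 3, 6, 2, 14, 2 and 13. Sst in n02-PGC-1 was higher in the female pool in 3 of 3 groups (5.71 ± 0.51, adjusted p = 7.17e-20 by edgeR), and in each female pool 1 cell held 12 to 59 of the UMIs. These 3 cells held 83 of the 95 Sst UMIs of the cluster, so the p-value rests on few cells and says little about mice. Without the richest cell of each library the levels were 0, 2.80, 0, 22.2, 0 and 15.3 CPM. Cck in Astro1 was higher in the female pools by 0.59 ± 0.12 (edgeR adjusted p = 0.0295), in 3 of 3 groups, and this was lost without either control pool or either occluded pool. Npy in n13-AstrocyteLike was higher in 2 of 3 groups (0.58 ± 0.13, edgeR adjusted p = 0.00957), together with summed ensheathing markers of 4699, 5103, 4551, 6943, 3615 and 5573 CPM. In n18-EPL-IN, Npy (-2.52 ± 0.44) and Sst (-2.61 ± 0.47) were lower in female pools, Npy in 3 and Sst in 2 of 3 groups. Each of these last 4 calls was lost when 1 or another single library was left out. In n18-EPL-IN these were either control or either occluded pool, and in n13-AstrocyteLike either occluded or either trained pool.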

How the data were processed

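Dissociated cells of 6 mouse olfactory bulb libraries were captured with the 10x Chromium 3′ v2 chemistry, and the submitters' processing notes name Cell Ranger 2.0.0, Seurat 2.2.1 and the mm10 build. The deposited count table holds the authors' raw UMI counts per gene and cell, with no normalization, for cells of at least 201 detected genes. The deposited cluster and library columns were used as the authors gave them, and the deposited Seurat-normalized table was not used. The name prefixes of 17275 cells of the 2 trained libraries differed from the library column. The library column was used, and the Xist and Ddx3y counts were checked against it. Of 52549 barcodes, 51426 had a cluster, and 50671 lay in the 40 clusters (18 neuronal and 22 nonneuronal). No doublet caller was run.

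Counts were summed per library and cluster. In the 38 clusters with at least 10 cells in every library, edgeR's quasi-likelihood test was fitted to all 6 libraries with TMM factors, filterByExpr and a group term, with Benjamini-Hochberg adjustment over the genes of each cluster and a threshold of 0.05. The female against male contrast, fitted with the group kept, was added after the data were seen. Marker genes per library and mean values (CPM) came from the same sums. Profile likeness was Pearson's r of log2(CPM + 10) over 40 clusters, for genes reaching 50 CPM. Cells were thinned to 500 UMIs for the thinned shares. Named genes were all 9 members in their highest neuronal and nonneuronal clusters, all their calls, and the 3 most similar profiles, of which 1 is not reported here. The members and gene lists were chosen with earlier results of these data known. Alternatives were DESeq2, no TMM, no filter, only the compared groups, the replicate block, cells of at least 1000 UMIs, and leaving out each library. Leaving out the richest cell of each library and the Npy levels of cells without Frzb were chosen after seeing the data. The scripts were tested on simulated data. Promoter sequences came from RefSeq (GRCm38.p6). Python 3.11.15, numpy 2.4.6, pandas 2.3.3, scipy 1.17.1, matplotlib 3.10.9, R 4.3.3, edgeR 4.0.16 and DESeq2 1.42.0 were used.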

Additional observations from a re-analysis of the deposited data

Results flagged for a closer look

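Of 45 gene-cluster comparisons checked, 8 ran in opposite directions in the male and the female pools, each by more than the 95% counting intervals of its libraries. These intervals treat every UMI as a separate draw, also where 1 cell held many of them. The 45 covered the tested members in their highest neuronal and nonneuronal clusters and in clusters where they were called. Calls in female against male pools were included, so some pairs were picked for a difference by sex. The share over all genes was not computed. With 1 library per sex and group the difference itself was not tested. Vip in n02-PGC-1 was higher in the trained than the control pool of males (511 against 297 CPM) and lower in females (187 against 358 CPM), a difference of -1.72 between the log2 ratios. Tac1 in n11-GC-5 went the other way (3.09 against 19.3 CPM in males, 86.7 against 31.9 CPM in females), a difference of 4.08.

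Npy in n13-AstrocyteLike was lower in the occluded than the control pool of males (705 against 1035 CPM) and higher in females (1976 against 955 CPM), a difference of 1.60. Trained against occluded pools differed by -0.99 between the sexes there (1007 against 705 CPM in males, 1423 against 1976 CPM in females). Sst in n18-EPL-IN was at 0 in the trained male pool, against 5505 CPM in the control and 6524 CPM in the occluded male pool, and at 1050 CPM in the trained female pool, against 419 and 0 CPM. The values of the trained and control female pools came from 1 cell each, with 18 and 11 Sst UMIs. In the occluded male pool 1 cell held 155 of the 177 Sst UMIs. Npy in OEC4 differed least, by 0.14 for trained against control (19515 against 21129 CPM in males, 21133 against 20715 CPM in females) and by 0.18 for trained against occluded (21438 and 20506 CPM in the occluded pools).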

How the results depend on the processing

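Of 447 log2 fold changes recomputed for the group comparisons, 343 kept their direction and side of the threshold, 48 lost and 15 gained a call and 41 turned direction. The causes were not tested. For occluded against control, trained against control and trained against occluded in turn, calls among the 9 genes numbered 3, 2 and 2. They were 0, 0 and 0 with DESeq2. Cells of at least 1000 UMIs gave 1 and 1 in the first 2 comparisons, no filter gave 8 and 5 in the last 2, and fitting only the compared groups gave 0 in the last. Calls over all genes moved too, from 121, 166 and 311 in the 3 comparisons. They were 84 and 121 with the deeper cells, 473 and 730 without the filter and 157 with only the compared groups. Leaving out single libraries gave 4 to 6, 2 to 11 and 2 to 8. Where this left a group with 1 library, that library was assumed to vary like the others. Calls among the other precursors (2, 1 and 1) were 1, 0 and 0 with DESeq2. They were 0 and 0 in the first 2 comparisons with cells of at least 1000 UMIs, 1 in the first without TMM, and 2 and 4 in the last 2 without the filter. They also changed without single libraries. The female against male calls (6) were 2 with DESeq2, and over all genes 153 against 493.

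The replicate number, which is also the sex of the pool, was not taken to pair the libraries. Deviations of same-numbered libraries had median correlations of 0.0977, 0.0945 and 0.0641 over 38 clusters, from -0.296 to 0.323, and all 3 pairs were over 0.1 in 4 clusters. With the replicate block the calls were 4, 3 and 3 for the 9 genes and 4, 2 and 2 for the other precursors, and over all genes 190, 253 and 521 against 121, 166 and 311. Gained with the block were Npy in MicroG1 against control in occluded (-0.99) and trained pools (-0.95), and in trained against occluded Cck in Astro1 (-0.67) and Npy in n18-EPL-IN (-3.65). Npy in EC2 was lost in trained against occluded (adjusted p = 0.0818).

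In cells of at least 1000 UMIs the log2 fold changes were 0.098 for Penk in n07-GC-2, 0.21 for Cck and 0.12 for Nmb in n17-M/TC-3 (occluded against control), and 0.039 for Penk in Mes2, -0.11 for Vip in n02-PGC-1 and 0.043 for Cck in n17-M/TC-3 (trained against control). Without TMM, occluded against control gave 0.041 for Cck and 0.12 for Nmb in n17-M/TC-3 and 0.0031 for Npy in OEC4, and trained against occluded gave -0.035 for Nmb in n17-M/TC-3. Without the filter Npy in OEC4 gave 0.0075, and without the richest cells Sst in n18-EPL-IN gave -1.65 and Nmb in n17-M/TC-3 0.0095, all for occluded against control.

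Without single libraries, and in the order of comparisons above, Penk ranged from -0.64 to 0.089, -0.10 to 0.21 and -0.029 to 0.70 in n07-GC-2 and from -1.001 to 0.85, -0.90 to 1.15 and -0.52 to 0.65 in Mes2. Cck in n17-M/TC-3 ranged from -0.43 to 0.34, -0.54 to 0.23 and -0.35 to 0.18, Nmb there from -0.11 to 0.086, -0.040 to 0.17 and -0.030 to 0.19, and Sst in n18-EPL-IN from -9.33 to 3.04, -9.42 to 0.0073 and -9.71 to 6.51. Occluded against control ranged from -0.087 to 0.70 for Cck in Astro1, -2.38 to 1.54 for Npy in n18-EPL-IN and -0.039 to 0.011 for Npy in OEC4. Trained against occluded ranged from -0.11 to 0.013 for Npy in OEC4, and trained against control from -0.84 to 0.63 for Vip in n02-PGC-1.

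Pdyn and Pnoc passed the filter on low counts in no cluster and were not tested.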

Other observations

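The bulb-wide annotation holds 755 neurons that the finer neuronal annotation does not include, and these entered no comparison. Over all of them Npy was at 1627 CPM, Penk at 99.7 CPM and Cck at 70.7 CPM. The 61 cells of the bulb-wide cluster N2 had 6768 CPM of Npy, with 26.1 CPM of Penk and no Sst UMI, and the 660 cells of N11 had 1049 CPM of Npy and 27.1 CPM of Sst.

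Other precursors added to the picture of the same clusters. Tac2, the neurokinin B gene, was highest in n02-PGC-1 at 264 CPM, Adcyap1 in n17-M/TC-3 at 147 ± 58.8 CPM, and Cort in n14-GC-7 at 130 CPM. Adcyap1 in n17-M/TC-3 averaged 87.7 CPM in the occluded and 215 CPM in the control pools, and Trh in n18-EPL-IN averaged 283 CPM in the occluded, 432 CPM in the trained and 1907 CPM in the control pools.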
